A study of Sus scrofa with 6 samples.

Results

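The CLCN5-locus miRNAs are a group of small RNAs named miR-188, miR-362, miR-500, miR-501, miR-502, miR-532 and miR-660. Members were taken by name, with or without an arm suffix, among the 322 probes for pig mature miRNAs. The array carried 4 of them, ssc-miR-362, ssc-miR-500, ssc-miR-532-3p and ssc-miR-532-5p, and no probe was named for miR-188, miR-501, miR-502 or miR-660. The LA of 3 sham and 3 paced pigs was profiled on 1-colour arrays, 1 for each animal. In the paced animals (the PAF group of the labels), a catheter in the RA delivered bursts of rapid stimuli, and short runs of AF followed that ended on their own. The sham animals received no such bursts. Tissue was taken on the following day. The methods describe Large white pigs of 3 months, with esmolol, a beta blocker, given before pacing, whereas the labels describe neonatal piglets. The animals model brief paroxysms and not lasting AF, and the tissue is whole LA, so that fewer cells of a type and less RNA per cell cannot be told apart.

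A miRNA is cut from a hairpin in a longer transcript, and either arm of the hairpin (5p or 3p) can give a mature miRNA. The mature strand pairs with target mRNAs mainly through its seed, bases 2 to 8 from the 5′ end, and lowers their translation or stability. Hairpins that lie close together can come from 1 transcript, and those in an intron can come from the transcript of the host gene. In the human genome this cluster lies in introns of CLCN5, the gene of a chloride and proton exchanger of endosomes best known for its role in the kidney tubule. No function in the atrium is assumed for the members here.

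In the gene table of the Sscrofa11.1 assembly (RefSeq), the genes MIR532, MIR500 and MIR362 followed each other on chromosome X within 7 kb, with 0 other genes between them. CLCN5 was the next gene listed on one side, also with 0 genes between. The gene model of CLCN5 in that table held 0 of the 3 miRNA genes, so that the host gene in the group's name rests on the human annotation and not on this table. The array files name no genome build, and no coordinates are given.

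The target sequences in the scanner files are shown because they set which mRNAs each miRNA could pair with and which other RNAs its probe could bind. The seed is in capitals, and each sequence runs from 5′ to 3′.
ssc-miR-362: aAUCCUUGgaaccuaggugugagug
ssc-miR-500: aUGCACCUgggcaaggauucu
ssc-miR-532-3p: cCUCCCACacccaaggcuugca
ssc-miR-532-5p: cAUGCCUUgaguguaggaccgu
The 4 seeds differed from each other, and 0 of the other probes shared the seed of any member. For ssc-miR-532-3p, 1 other probe had the same bases 2 to 7, that of ssc-miR-150, a miRNA of mature lymphocytes. The members were 21 to 25 bases long. Their GC content was 48% for ssc-miR-362, 52.4% for ssc-miR-500, 63.6% for ssc-miR-532-3p and 54.5% for ssc-miR-532-5p, against a median of 47.6% over all probes. The closest other sequence on the array was 7 edits away for ssc-miR-500, 8 for ssc-miR-532-5p and 9 for both others, where the median over all probes was 8. No member therefore had a near copy among the other targets. RNAs without a probe, such as miR-501, miR-502 and miR-660 of the same group, were not compared, so binding of those is not excluded.

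Complementary runs were read for all 6 pairs of members. The longest, between ssc-miR-362 and ssc-miR-500, was the first 8 bases of ssc-miR-362, AAUCCUUG, against CAAGGAUU from base 12 of ssc-miR-500. A run at least as long was found in 0.459% of the 51681 pairs of array sequences. Between the arms of miR-532, which come from 1 hairpin, the run was 6 bases, CAAGGC from base 12 of the 3p arm against GCCUUG from base 4 of the 5p arm, and 6.62% of pairs had one as long. The run was also 6 bases between ssc-miR-362 and ssc-miR-532-3p, and it was 4 or 5 bases in the other 3 member pairs, a length reached by 68.0% and 24.4% of pairs. These matches are letters in the mature sequences only.

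Scanner signals are median pixel intensities of a spot, background included. The median of the 786 empty spots lay between 64.7 and 214 units on the sham arrays and between 242.5 and 399 units on the paced arrays, with no overlap. Each probe had 9 repeat spots. It is called well above background on an array where their median lay over 3 SD higher than that of the empty spots, with the SD taken over the empty spots. This held for 104 to 175 probes per array, on all 6 arrays for 104 of the 322 probes and on none for 143. Of 7 probes for cardiac muscle miRNAs (miR-1, miR-133a, miR-133b, miR-208b, miR-499), 5 were well above background on all 6 arrays. Of the 5 probes for liver, epithelial and neural miRNAs together, 0 were so on any array. The number of arrays limits the precision of all values below, and the exact permutation test on 3 against 3 animals cannot give a p below 0.1.

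None of the 4 members was well above background on all 6 arrays. Detection held in 9 of the 24 combinations of member and array (37.5%, against 44.6% over all probes), in 6 of 12 in sham (50%, against 47.9%) and in 3 of 12 in paced animals (25%, against 41.2%). With each spot set instead against its own 15 nearest empty spots, it held in 14 of 24 (58.3%, against 49.9%), with 10 of 12 in sham (83.3%, against 53.8%) and 4 of 12 in paced animals (33.3%, against 46.1%). As shares of 4 probes these set the members apart from the array in neither direction. The excess over the empty spots ranged from -0.19 to 10.3 SD in sham and from -0.99 to 3.46 SD in paced animals. The empty-spot signal moved with the group, as above, and its part in these counts was not tested.

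**Figure D1:**
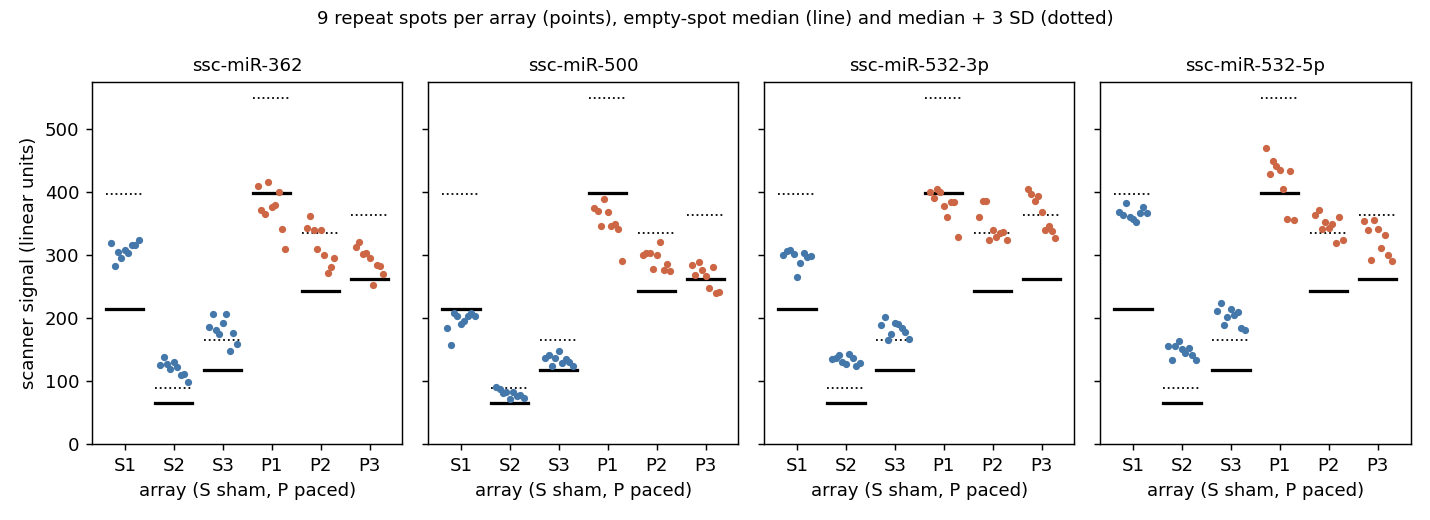
Scanner signal in linear units (vertical axis) of the 9 repeat spots of each member on each array (horizontal axis, S1 to S3 sham and P1 to P3 paced), with the empty-spot median as a line and the median plus 3 SD as a dotted line. The median spot of ssc-miR-500 stays below the dotted line on every array, while those of ssc-miR-362 and both miR-532 arms lie above it in sham replicates 2 and 3.

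For ssc-miR-362 the median scanner signal was 308, 123 and 181 units in sham replicates 1, 2 and 3 and 377, 309 and 296 units in paced replicates 1, 2 and 3. Above the nearest empty spots it stood at 89.2, 54.4 and 52.7 units in sham and at -12.1, 62.7 and 34.0 units in paced animals. The raw signal was thus highest on the paced array with the highest background, where nothing remained above the surrounding empty spots. By the first measure the probe cleared the background in 2 sham and 0 paced animals, and by its nearest empty spots in 3 and 1.

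For ssc-miR-500 the signal was 203, 80.9 and 136 units in sham and 349, 299.8 and 268 units in paced animals. The excess over the nearest empty spots was -9.06, 14.1 and 7.88 units in sham and -56.5, 36.2 and -8.80 units in paced animals. It was the only member well above background on 0 arrays (against the nearest empty spots, on 1, sham replicate 2), so its values below carry little more than background.

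For ssc-miR-532-3p the excess over the nearest empty spots was 83.2, 67.3 and 58.9 units in sham and -28.2, 95.9 and 91.8 units in paced animals. The probe was well above background in 2 animals of each group, and by its nearest empty spots in 3 sham and 2 paced animals. For ssc-miR-532-5p, the other arm of the hairpin, the excess was 146, 83.3 and 80.3 units in sham and 11.2, 86.3 and 54.3 units in paced animals. It cleared the background in 2 animals of the sham group and 1 of the paced group, and by its nearest empty spots in 3 and 1. On paced replicate 1, the array with the highest empty-spot signal, 0 of the 4 members were well above background by either measure.

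The question of the design was whether brief AF episodes changed miRNA levels in the LA. Scanner values were corrected for background (normexp, offset 50), transformed to log2, quantile-normalized between arrays and averaged over repeat spots. The comparison of both groups was fitted with limma on the whole set of 322 probes, with the Benjamini-Hochberg adjustment over all of them. Values below are normalized log2 values of a probe, and a difference is paced minus sham on that scale. After adjustment 0 of 322 probes (0%) passed 0.05, and so 0 of the 4 members. At an unadjusted p of 0.05, the threshold that the methods name, 1 member of 4 passed, ssc-miR-362, where 10.6% of all probes (34) did so, 7.14% being lower in paced animals. The methods' t-test on the same values also gave 0 after adjustment and 39 before. With 4 members, 1 call does not set the group apart from the array. The median difference was -0.13 over the members, with a range from -0.30 to 0.028, and 0.0031 over all probes.

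**Figure D2:**
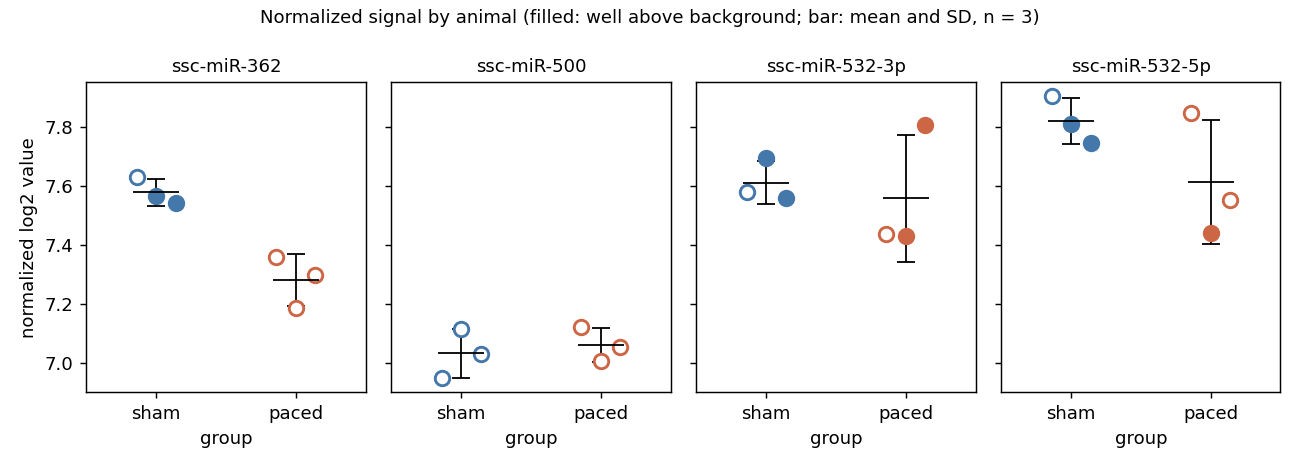
Normalized log2 value (vertical axis) of each member in each animal by group (horizontal axis), filled where the probe was well above background on that array, with the mean and SD of 3 animals as bars. The paced and sham values of ssc-miR-362 do not overlap, while those of the other 3 members do.

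The values of ssc-miR-362 were 7.63, 7.56 and 7.54 in sham replicates 1, 2 and 3 and 7.36, 7.19 and 7.30 in paced replicates 1, 2 and 3. The groups did not overlap, with every paced value lower than every sham value. Group means were 7.58 in sham (SD 0.05, n = 3) and 7.28 (SD 0.09, n = 3) after pacing. They differed by -0.30 (SE 0.07, 95% interval -0.47 to -0.12, limma, adjusted p = 0.168), which was larger than the spread between animals but did not pass the adjustment. Separation without overlap was seen for 17.4% of all probes, and for 10.2% with lower paced values. The exact permutation test (two-sided) gave the smallest p it allows, 0.1. Because no paced array had the probe well above background, its level there has an upper limit only, and no fold above 1 follows from that limit.

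Adding an offset shrinks log2 differences at low signal. For ssc-miR-362, signal above the offset divided by 2 would have appeared as -0.66. That signal still holds background, as the probe of miR-122, well above background on 0 arrays, had a sham mean of 6.68. A halving of the miRNA alone would therefore have appeared smaller than -0.66 in size, by an amount not known here. After correction against the nearest empty spots and quantile normalization, the values were 7.47, 7.49 and 7.43 in sham and 7.37, 7.13 and 7.23 in paced animals. These did not overlap, and the difference was -0.22 (limma, adjusted p = 0.414). Before normalization the groups did overlap. Paced replicate 2 stood 62.7 units above its nearest empty spots, and sham replicates 2 and 3 stood 54.4 and 52.7 units above theirs. Among the paced arrays the normalized order was the reverse of that excess. The highest normalized value was on paced replicate 1, where the excess was -12.1 units. The 9 repeat spots on 1 array spread by 0.05 to 0.36 (SD, log2), and the widest spread was on paced replicate 1. With plain subtraction of the empty-spot median the difference was -0.75 (limma, adjusted p = 0.331), past the unadjusted threshold only. In 2 of the settings the difference changed sign. With arrays scaled on the detected probes it was 0.23, below the shift of 0.44 that this setting gave the median of all probes. Without normalization it was 0.069, below a shift of 0.27.

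For ssc-miR-532-5p the values were 7.90, 7.81 and 7.75 in sham and 7.85, 7.44 and 7.55 in paced animals. Paced replicates 2 and 3 lay below all sham animals, whereas paced replicate 1 lay among them. That array is also the one where the probe was near the empty spots and its repeat spots spread most, by 0.45 (SD, log2). Group means were 7.82 in sham (SD 0.08, n = 3) and 7.61 (SD 0.21, n = 3) after pacing. The difference of -0.21 (SE 0.12, 95% interval -0.48 to 0.07, limma, adjusted p = 0.532) was larger than the SD of the sham animals but not than that of the paced animals, and its interval included 0. With plain subtraction of the empty-spot median it was -0.60 (limma, adjusted p = 0.355), past the unadjusted threshold only. The sign turned with arrays scaled on the detected probes (0.24) and without normalization (0.081), where the median probe shifted by 0.44 and 0.27. Without paced replicate 1 the difference was -0.35 (limma, adjusted p = 0.0722), past the unadjusted threshold. Without paced replicate 2 it was -0.12 (limma, adjusted p = 0.739), not past that threshold.

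For ssc-miR-532-3p the values were 7.58, 7.69 and 7.56 in sham and 7.44, 7.43 and 7.81 in paced animals. Paced replicate 3 was the highest of all 6 animals and the other 2 paced animals the lowest. Group means were 7.61 in sham (SD 0.07, n = 3) and 7.56 (SD 0.21, n = 3) after pacing. The groups differed by -0.053 (SE 0.12, 95% interval -0.33 to 0.22, limma, adjusted p = 0.885). Its sign turned under cyclic loess, under both settings that turned the sign of ssc-miR-362, on the authors' processed values, and without paced replicate 1 or 2. Plain subtraction of the empty-spot median moved the difference the other way, to -0.37 (limma, adjusted p = 0.601). With arrays scaled on the detected probes it was 0.47 (limma, adjusted p = 0.0262), higher in paced animals and past the adjustment, against the shift of 0.44 of the median probe. The probe of ssc-miR-150, which shares bases 2 to 7 with it, was well above background on all 6 arrays and differed by -0.12 (SE 0.17, limma, adjusted p = 0.838).

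For ssc-miR-500 the values were 6.95, 7.12 and 7.03 in sham and 7.12, 7.01 and 7.05 in paced animals, and the groups overlapped. Group means were 7.03 in sham (SD 0.08, n = 3) and 7.06 (SD 0.06, n = 3) after pacing. This difference, 0.028 (SE 0.07, 95% interval -0.15 to 0.20, limma, adjusted p = 0.907), did not exceed the SD of either group. A doubling of the signal above the offset, background included, would have given 0.69, and a doubling of the miRNA alone would have given less. Since no array had the probe well above background, these values do not decide whether the miRNA changed. With arrays scaled on the detected probes the difference reached 0.67 (limma, adjusted p = 0.00259), against the shift of 0.44 of the median probe. It fell below 0 against the nearest empty spots (-0.085) and with the median of repeat spots (-0.020). The same held without sham replicate 1 (-0.015) or paced replicate 1 (-0.0017).

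**Figure D3:**
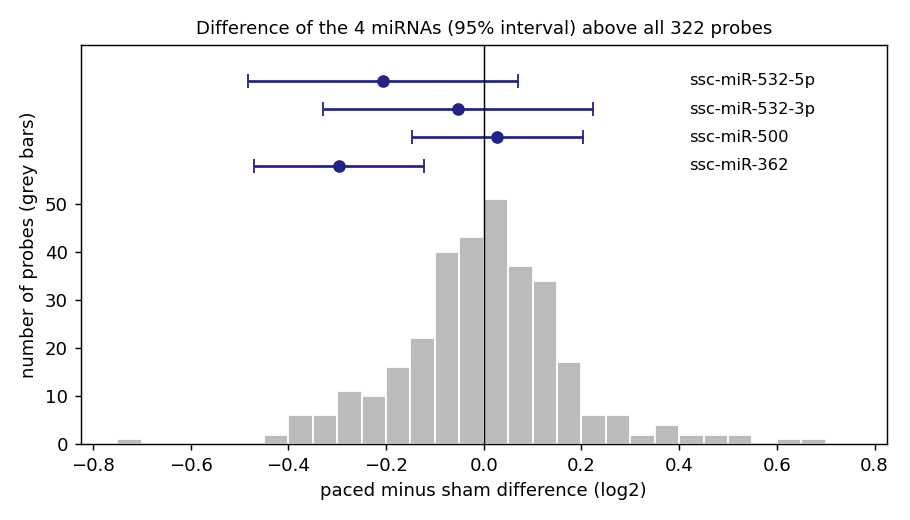
Paced minus sham difference on the log2 scale (horizontal axis) of the 4 members, as points with 95% intervals, above a histogram of the same difference for all 322 probes (vertical axis, number of probes). Only the interval of ssc-miR-362 excludes 0, and the differences of all 4 members lie within the range of the array, from -0.70 to 0.68.

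The members were also set against each other by the difference between 2 members within each array, for all 6 pairs. With no member well above background on all 6 arrays, these differences cannot show whether members responded unlike each other. The difference of ssc-miR-362 from ssc-miR-500, whose genes are next to each other, averaged 0.55 in sham (SD 0.12, n = 3) and 0.22 (SD 0.04, n = 3) after pacing. These values also carry the brightness of each probe, so only their change is compared. The change was -0.33, with no overlap between groups (exact permutation test, two-sided, p = 0.1, adjusted p = 0.6 over 6 pairs). Since ssc-miR-500 was near background throughout, this change largely repeats that of ssc-miR-362. For the arms of miR-532, 3p minus 5p, it was 0.15 (exact permutation test, p = 0.5, adjusted p = 0.6), with values of -0.41, -0.0090 and 0.25 in paced replicates 1, 2 and 3 and between -0.32 and -0.12 in sham animals. On paced replicate 1, which gave the lowest of these values, neither arm was well above background. The other 4 pairs had p values from 0.2 to 0.6.

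The authors' processed values gave ssc-miR-362 as 85.4, 77.8 and 78.1 in sham and 60.4, 42.7 and 51.0 in paced animals, on a linear intensity scale. Group means were 80.4 in sham (SD 4.33, n = 3) and 51.4 (SD 8.84, n = 3) after pacing, again without overlap. On these values the log2 difference was -0.66 (limma, adjusted p = 0.234). For ssc-miR-532-5p the processed values were 125, 110 and 101 in sham and 124, 73.3 and 84.5 in paced animals, with the same order of the paced arrays as above. For ssc-miR-532-3p they were 78.0, 93.1 and 79.2 in sham and 75.3, 72.2 and 128 in paced animals, where paced replicate 3 again stood alone. For ssc-miR-500 they were 14.7, 25.3 and 22.8 in sham and 30.7, 26.0 and 23.7 in paced animals, the lowest range of the 4. The log2 differences of these 3 members on the processed values were -0.28, 0.092 and 0.39 in the same order, with limma adjusted p from 0.687 to 0.905.

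**Figure D4:**
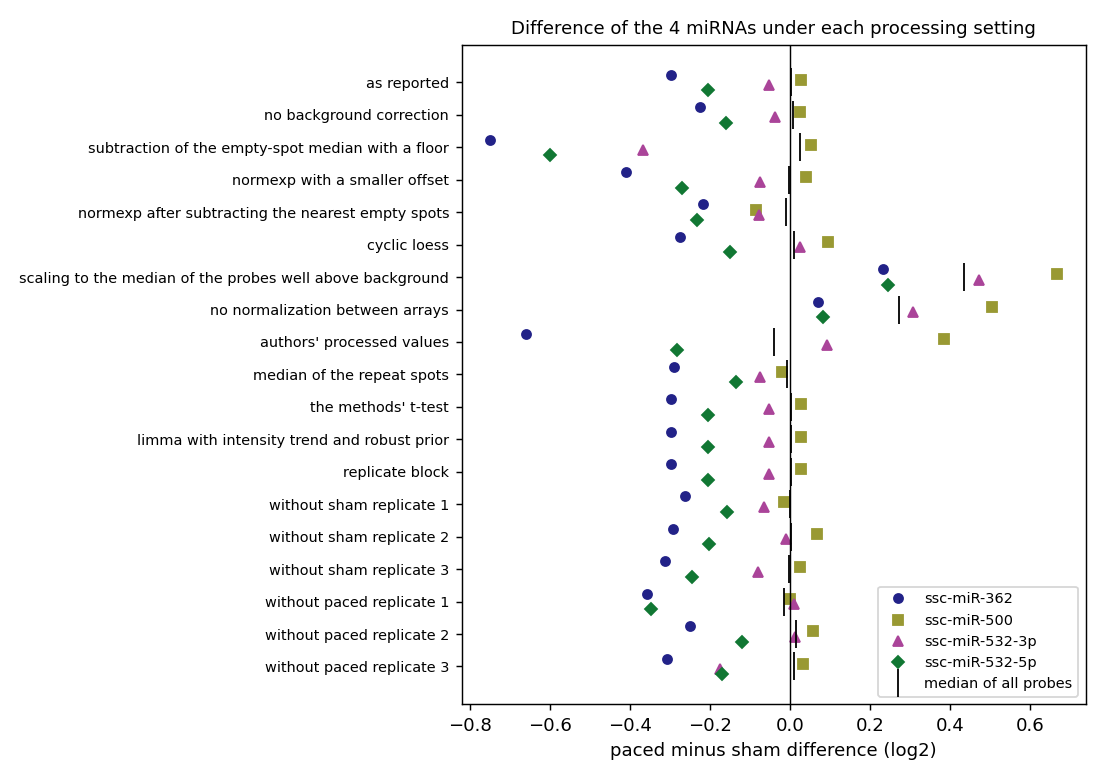
Paced minus sham difference on the log2 scale (horizontal axis) of each member under each processing setting and with each animal left out (vertical axis), with the median over all probes as a black tick. The difference of ssc-miR-362 is below 0 except under scaling to the detected probes and without normalization, where the median of all probes moved up as well, to 0.44 and 0.27.

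Other miRNAs of the X chromosome were read from the same fit. The list held 22 names, of which 21 had a probe, and the gene table placed 19 of these on chromosome X and listed no gene for miR-424 and miR-503. Of their 32 probes, 6 were well above background on all 6 arrays and 12 on none. At the unadjusted threshold 3 were lower in paced animals, miR-363, miR-18b and miR-542-5p, and 1 was higher, miR-545-3p, with 0 after adjustment. These 4 of 32 compare with 10.6% of all probes called in either direction and 7.14% called lower, close to the share of the array. The differences were -0.42 (SE 0.08), -0.33 (SE 0.10), -0.40 (SE 0.08) and 0.17 (SE 0.06). Their limma adjusted p lay between 0.134 and 0.382. The probe of miR-545-3p was well above background on 0 arrays, those of miR-18b and miR-542-5p on 0 of the paced arrays and that of miR-363 on 1 of them. The median over the 32 probes was -0.0034, with 16 higher and 16 lower. The median over the 4 members was -0.13, with 1 higher and 3 lower.

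Markers of blood and vessel cells were read beside the result of ssc-miR-362. The summed linear level of 3 erythroid probes (miR-451, miR-144, miR-486) was 12198 to 17089 in sham and 8241 to 12293 in paced animals. This sum came almost wholly from miR-451, which differed by -0.37 (limma, adjusted p = 0.511) and did not pass the unadjusted threshold. Of these probes 1, miR-486, was lower in paced animals at the unadjusted threshold (limma, adjusted p = 0.134). Over all probes 7.14% were called lower at that threshold, and 10.6% in either direction. The sum of 4 smooth muscle probes (miR-143 and miR-145) was 19261 to 23007 in sham and 17153 to 19084 in paced animals. Of these, 1 was lower at that threshold, miR-143-3p (limma, adjusted p = 0.323). With 3 and 4 probes, 1 call sets neither list apart from the array. For 3 leukocyte probes the sums were 928 to 1200.2 and 917 to 1182, with 0 past the threshold. For 2 endothelial probes (miR-126) they were 8345 to 9986 and 8110 to 9397, almost wholly from miR-126-3p, which differed by -0.025. The probe of miR-126-5p was higher in paced animals at the threshold, but was well above background on 0 arrays. For 5 fibroblast probes they were 22785 to 24932 and 21113 to 26154, with 0 past the threshold. The part of these cells in the members' values was not tested.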

How the data were processed

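Total RNA from the LA of 6 pigs was hybridized to LC Sciences pig miRNA arrays (Cy3). The authors deposited the scanner output of every array, as the median intensity of each spot, neither background-corrected nor normalized. They also deposited 1 processed intensity per probe and array, which appears background-subtracted and normalized by methods not given in the sources used here. All 3968 spots were corrected with normexp (offset 50), and the 2898 miRNA spots were log2-transformed, quantile-normalized and averaged over 9 repeat spots (limma 3.58.1, R 4.3.3). Groups came from the sample titles. The methods name 3 sham and 3 paced pigs, so each array was taken as 1 animal. The fit was tested on simulated data. Alternatives changed background correction, offset, normalization, dim-probe filter, spot summary, test, the replicate number as a block, and the animals included. Figures were drawn with matplotlib 3.10.9 (Python 3.11.15).

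The members and lists were chosen with earlier results of these data known. Named miRNAs were all members, probes sharing a member's seed (0 found), and the 3 probes most like the members well above background on all 6 arrays. As no member met this, none were named. miR-150, and the list members past the unadjusted threshold, were named after their values were seen.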

Additional observations from a re-analysis of the deposited data

How the results depend on the processing

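The difference of ssc-miR-362 stayed below 0 and past the unadjusted threshold with each animal left out (-0.36 to -0.25, adjusted p from 0.0608 to 0.674) and in 10 of 12 other settings, reaching -0.75 with plain subtraction. It was 0.23 under scaling to the median of the detected probes and 0.069 without normalization. In those settings ssc-miR-532-5p was at 0.24 and 0.081 and ssc-miR-532-3p at 0.47 and 0.31, and 4 members had higher paced means. ssc-miR-532-3p was also at 0.024 under cyclic loess and 0.092 on the processed values (2 members higher in each), and ssc-miR-500 at -0.085 against the nearest empty spots and -0.020 with the median of repeat spots (0 members higher in each). With an animal left out, ssc-miR-532-3p ranged from -0.18 to 0.012 and ssc-miR-500 from -0.015 to 0.066, and 0 to 2 members were higher. Members past the unadjusted threshold numbered 2 with plain subtraction (ssc-miR-532-5p at -0.60) and under scaling (2 after adjustment), 0 without normalization, and 1 to 2 with an animal left out (2 without paced replicate 1), with 0 after adjustment. Over all probes the count was 181 under scaling (171 after adjustment), 15 without normalization, 5 with the filter on dim probes, and 19 to 67 with an animal left out (0 to 9 after adjustment). It was 19 without sham replicate 2, 21 without paced replicate 3 and 67 without paced replicate 1, with 9 after adjustment there and 1 without paced replicate 2. Among the calls, 67.6% were lower in paced animals, against 2.76% under scaling, 0% without normalization, 47.2% against the nearest empty spots, 80% with the filter, 50% on the processed values and 55% with an intensity trend. The filter kept 126 probes and no member. With the replicate number as a block the count was 33, and ssc-miR-362 stayed at -0.30 (adjusted p = 0.246). Same-numbered animals deviated together with r of 0.17, -0.01 and 0.21 across 104 probes, which are not independent. Differently numbered animals gave r from -0.24 to 0.091, below 0.17 and 0.21. These values do not decide whether the numbers mark pairs. The numbers were not taken as pairs because the methods name an unpaired test. The cause of these changes was not tested. Detection limits the values of all 4 members, which were well above background on 0 to 4 of 6 arrays.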
